A study of Mus musculus with 24 samples.

Results

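Of 60804 transcript probes on the array, 7 were well above background on all 21 arrays of brain, heart, kidney, liver, F9, GC-1 and GC-2 and on none of the 3 testis arrays. They were chosen by that rule alone, from the flag that the scanner software sets for a signal clearly above the background of the array, so their low signal in testis is how they were found and is given here as a description, without a test. The 7 probes were ASMM10P003512, ASMM10P004151, ASMM10P004777, ASMM10P007340, ASMM10P040827, ASMM10P045497 and ASMM10P050932. The tissues came from 8-week-old male ICR mice, an outbred stock, with 3 arrays per tissue described as biological replicates. The lines were F9, an embryonal carcinoma line grown without retinoic acid, GC-1, immortalized germ cells likened to a stage from late spermatogonia to early spermatocytes, and GC-2, germ cells likened to spermatocytes, each with 3 arrays. None of the 8 groups was treated and no allele is named for any of them. Each cell line has 1 source, so its 3 arrays measure the spread between preparations of that line.

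Adult testis transcribes an unusually large share of the mouse genome, mostly in meiotic and postmeiotic germ cells, and most transcripts found widely in other organs are also found there. Transcripts that are present in organs of different kinds and not detected in testis are therefore expected to be few. Known examples of low expression in male germ cells include genes of the X chromosome, which is silenced during meiosis, such as Pgk1, an enzyme of glycolysis whose place in spermatids is taken by an autosomal copy. In whole tissue, fewer cells of a type and less RNA per cell cannot be told apart.

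Levels are given as the log2 of the processed intensity minus the log2 of the 75th percentile of all transcript probes on the same array, so that 0 is the 75th percentile and a step of 1 is a 2-fold difference. That percentile lay between intensities of 30.7 and 384, and was highest on the testis arrays (305 to 384). Between 18257 and 37393 probes per array were well above background, and the testis arrays, with 34999 or more, held the most. Replicate 1 of all 8 groups shared 1 slide, the remaining brain, kidney, liver and testis arrays a second slide, and the remaining heart and cell line arrays another. Liver replicate 1 stood apart in its background, with a 95th percentile of negative controls of 13.6 against at most 4.97 elsewhere. Of 46 marker genes of the tissues, the lines and other cell types, 8 had an identified probe. In 7 of these the labelled group was the highest, and the exception was Stra8, highest in F9, which is too few probes to check the labels of all groups. Part of the names came from the study's lists of tissue-specific transcripts, which were chosen from these same arrays. The match of markers and labels was thus partly fixed in advance and is no independent check.

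None of the 7 probes could be named. The array files carry probe identifiers without gene names, and the supplementary lists of the study, as far as they were readable here, identified 3478 probes (5.72%). In the readable part of the study's list for the tissues no probe lay below 2.15 in brain, where the highest of the 7 was at 1.42. In that for the lines none lay below 4.34 in F9, where the highest of the 7 was at 1.73. These parts thus held strong signals only, and none of the 7 could appear in them. Among the 13551 probes well above background on all 24 arrays, 1682 (12.4%) were identified, against 0 of the 7. Their symbols, positions, transcript class and probe sequences were therefore not analysed here, and it is not known whether each stands for an lncRNA or an mRNA, or whether some stand for the same transcript. All 7 identifiers are printed, more than the 2 first planned for probes without names, so that each can be looked up.

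A signal not well above background in testis was rare among widely present probes. Of 13594 probes well above background on all 21 arrays outside testis, 13551 were so on all 3 testis arrays, 25 on 2 of them, 11 on 1 and 7 on none, so that the 7 made up 0.0515% of widely present probes and 0.0115% of all probes. Without testis replicate 1 the rule found 15. The same rule turned on each other group found 4 probes for kidney, 6 for brain, 14 for heart, 27 for GC-1, 27 for GC-2, 100 for F9 and 1070 for liver. The counts for brain and kidney were thus as low as that for testis. Liver had the fewest probes well above background, 18257 to 21349 per array, and the highest count. These counts rest on a threshold that is set within each array, and whether brightness accounts for their order was not tested.

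**Figure D1:**
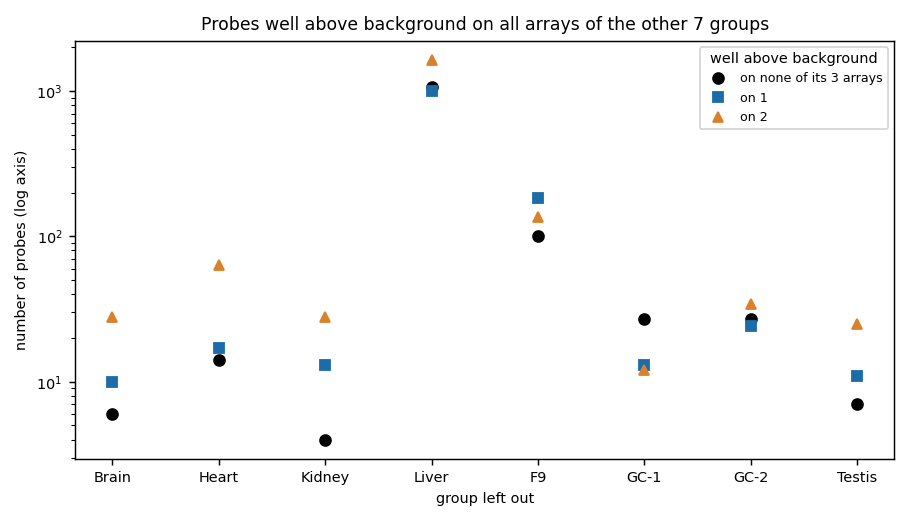
Number of probes (log axis) that were well above background on all arrays of the other 7 groups and on none, 1 or 2 of the 3 arrays of the group on the x axis. Testis, with 7, 11 and 25 probes, lies near brain and kidney, and liver lies highest with 1070, 999 and 1642.

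In testis the 7 probes gave weak signals, and most of these were not zero. Their 21 testis intensities lay between 2.79 and 17.3, while the lowest signal called well above background was 13.1, 14.1 and 14.0 on the 3 testis arrays and the 95th percentile of the negative controls was 3.55, 4.03 and 3.74. On 17 of the 21 testis spots the signal exceeded that percentile, and on 17 the software's weaker flag, which asks that a signal be positive and significant, was set. ASMM10P003512 gave testis intensities of 15.6, 17.3 and 15.6 and passed the weaker flag on all 3 arrays. ASMM10P004151 gave 2.96, 4.72 and 3.25 and passed it on 1 array. No probe of the 7 failed the weaker flag on all 3 testis arrays, so the rule records a signal below the stricter limit and does not show absence. For ASMM10P004151, 2.96 and 3.25 lay below the 95th percentile of the negative controls on their arrays (3.55 and 3.74). A weak signal and none cannot be told apart there. Outside testis the 147 spots of these probes ran from 16.5 to 7584, and none of the 168 spots carried a flag for an outlier or for saturation.

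**Figure D2:**
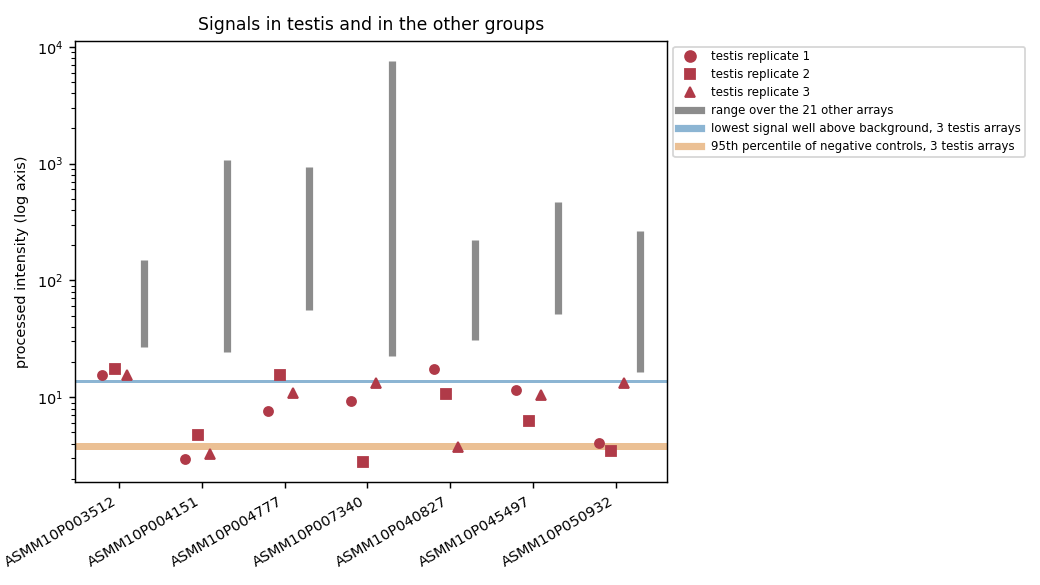
Processed intensity (log axis) of each probe on the 3 testis arrays (red symbols, 1 shape per replicate) and its range over the 21 other arrays (grey bars). The blue band is the lowest signal called well above background on the 3 testis arrays (13.1 to 14.1) and the orange band the 95th percentile of their negative controls (3.55 to 4.03); all red symbols lie at 17.3 or below.

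For each of the 7 probes the lowest of the 21 other arrays lay above the highest testis array. The measured testis means ran from -6.58 to -4.40. Because a signal that is not well above background has only an upper limit, folds over testis are given as lower bounds, with the lowest signal well above background on each testis array, or the signal of the probe itself where that was higher, in place of the testis value. By that measure the lowest group of each probe was at least 20.2-fold above testis for ASMM10P007340, at least 19.5-fold for ASMM10P045497, at least 11.8-fold for ASMM10P004777, at least 10.2-fold for ASMM10P003512, at least 10.0-fold for ASMM10P040827, at least 6.80-fold for ASMM10P004151 and at least 3.73-fold for ASMM10P050932. These bounds move with the scaling. On the log2 scale they ran from 1.90 to 4.33 as given, from 1.21 to 2.87 with the 75th percentile over the probes well above background on all 24 arrays, from 1.39 to 4.05 with quantile normalization and from 1.19 to 2.41 with normexp background correction. That of ASMM10P007340 fell from 4.33 to 2.74 with the other percentile and to 2.41 with normexp, and that of ASMM10P003512 from 3.35 to 1.76 with the other percentile. Testis was the lowest of the 8 group means for 8235 of the 13551 probes on all 24 arrays (60.8%), so being lowest in testis is common with this scaling. With the 75th percentile taken over the probes well above background on all 24 arrays that share was 23.8%, with quantile normalization 54.4% and with normexp background correction 54.9%. An excess over testis as large as the smallest among the 7 was not particular to them either. Between the lowest other group mean and the measured testis mean, 137 of the 13551 probes had a difference at least as large as the smallest among the 7 (3.16). In the same order of scalings these were 203, 1074 and 1473 probes. With the scaling used here the differences of the 7 ran from 3.16 to 5.30. Those of ASMM10P045497 (4.88) and ASMM10P007340 (5.30) exceeded 4.76, the value ranked 3 among the 13551 probes. Those of the remaining members lay below 4.76.

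The limit of the rule lay close to some values. Just inside it, ASMM10P050932 had a brain level of -2.74 ± 0.26 (SD, n = 3), from intensities as low as 16.5, and ASMM10P003512 had testis intensities up to 17.3. Just outside it, the 11 probes well above background on 1 testis array had testis means from -4.88 to -3.97, and the 25 on 2 testis arrays from -4.58 to -2.82. The weakest testis signals called well above background among these probes were 15.8 and 15.5, so single intensities overlapped across the limit. The testis mean of ASMM10P003512 (-4.40) also lay within the range of these neighbours. Those of the other members, from -6.58 to -4.97, lay below the testis means of all these neighbours.

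Outside testis the 7 did not share 1 profile. Averaged over 21 arrays their levels ran from -0.51 (ASMM10P050932) to 1.47 (ASMM10P007340), and for 4 of the 7 the median array was above 0. Heart was the highest group for 4 probes, and kidney, F9 and GC-2 for 1 each. Brain was the lowest of the 7 groups with signal for 4 probes, F9 for 2 and GC-1 for 1.

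**Figure D3:**
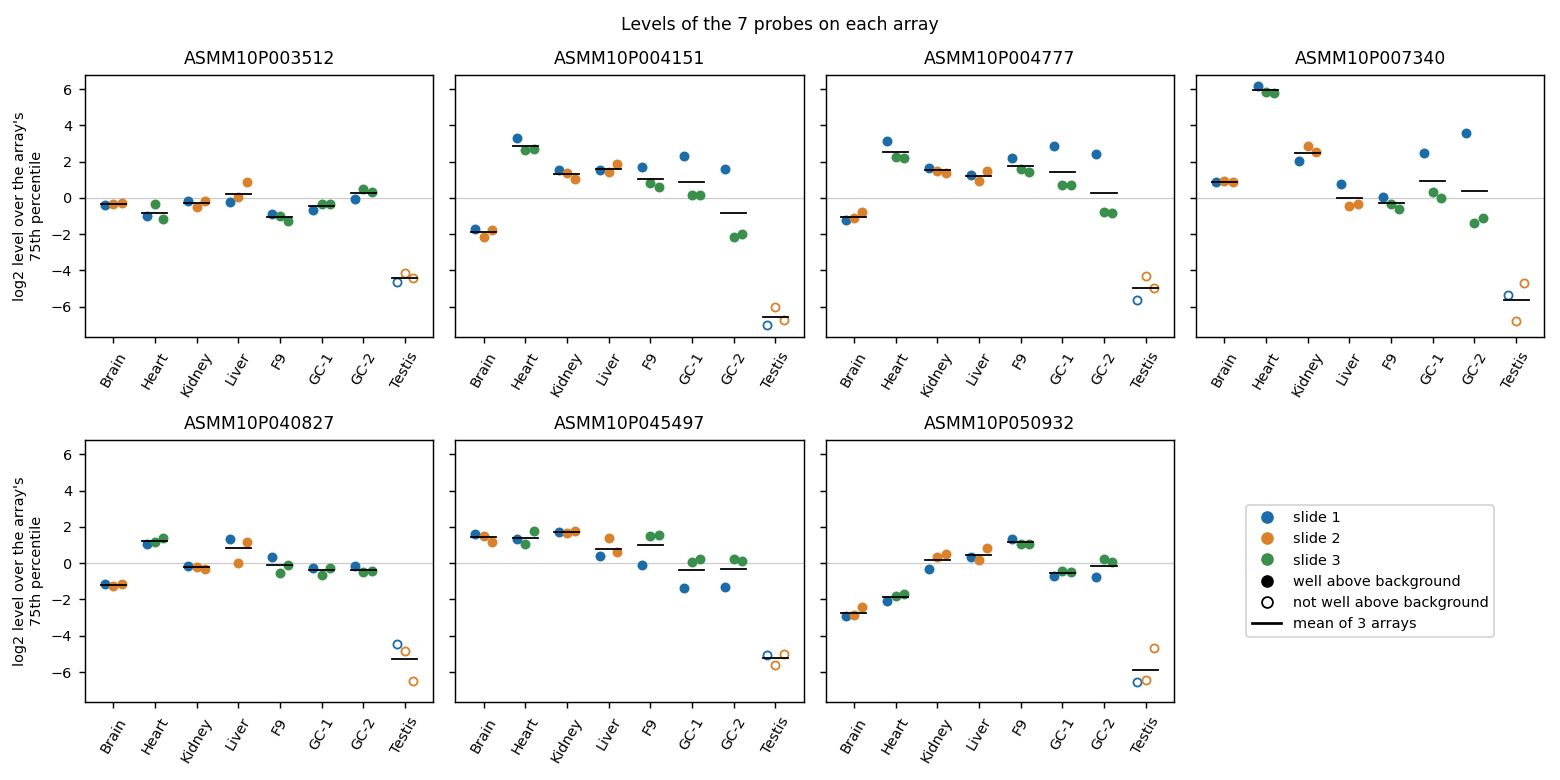
Log2 level of each of the 7 probes on each array, by group, with the colour giving the slide, a filled point a signal well above background, an open point one that was not, and a bar the mean of 3 arrays. Testis points lie at -4.14 or below in every panel, heart stands highest for ASMM10P007340, and replicate 1 of GC-1 and GC-2 lies apart from replicates 2 and 3 for ASMM10P004151, ASMM10P004777 and ASMM10P007340.

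ASMM10P007340 was a heart transcript above all. Its level on the heart arrays was 6.14, 5.85 and 5.78 (5.92 ± 0.19, SD, n = 3), from intensities of 3493 to 7584. Kidney followed at 2.06, 2.84 and 2.55, brain at 0.86, 0.91 and 0.90, and liver at 0.77, -0.44 and -0.31. Every heart array thus lay above every array of the other groups. With the 75th percentile scaling heart was at least 1511-fold above testis, and this bound holds for that scaling only. The percentile was 63.5 to 107 on the heart arrays and 305 to 384 on the testis arrays. In the lines the arrays were at 0.05, -0.33 and -0.63 in F9 cells, at 2.48, 0.35 and -0.03 in GC-1 and at 3.56, -1.36 and -1.14 in GC-2. On the testis arrays it read -5.37, -6.77 and -4.68. Kidney, brain and liver did not overlap each other and brain lay above F9, while GC-1 and GC-2, whose replicates disagreed, overlapped all of these.

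ASMM10P004151 and ASMM10P004777 had nearly the same profile. The level of ASMM10P004151 was 3.32, 2.63 and 2.67 in heart, 1.55, 1.44 and 1.85 in liver, 1.52, 1.37 and 1.06 in kidney, and -1.73, -2.14 and -1.74 in brain. Heart lay above all other groups, liver and kidney overlapped, and the brain arrays lay below those of the other 3 tissues. In the lines it was 1.72, 0.84 and 0.62 in F9 cells, 2.32, 0.14 and 0.16 in GC-1, and 1.59, -2.14 and -2.01 in GC-2, and in testis -7.02, -6.01 and -6.71. GC-2 thus spanned the range from kidney to brain.

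The level of ASMM10P004777 was 3.12, 2.26 and 2.21 in heart, 1.67, 1.50 and 1.39 in kidney, 1.25, 0.95 and 1.49 in liver, and -1.21, -1.10 and -0.78 in brain. In the lines it was 2.19, 1.58 and 1.43 in F9 cells, 2.84, 0.74 and 0.72 in GC-1, and 2.43, -0.80 and -0.85 in GC-2, and in testis -5.65, -4.30 and -4.97. Heart was again high and brain low, and the same arrays of GC-1 and GC-2 stood out. Pearson's r between both probes was 0.96 over the 21 arrays outside testis, the highest among the 21 pairs of these 7 probes, which otherwise ran from -0.49 to 0.78. These arrays share slides and a scaling, and r is given as a description. Whether both probes match the same transcript was not tested.

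ASMM10P040827 had a narrower range with the same ends. Its level was 1.21 ± 0.18 in heart, 0.83 ± 0.72 in liver, -0.23 ± 0.09 in kidney and -1.18 ± 0.05 in brain (SD, n = 3 each). The lines lay between, at -0.09 ± 0.43 in F9, -0.36 ± 0.20 in GC-2 and -0.38 ± 0.23 in GC-1. Brain lay below all other groups without overlap, while heart and liver overlapped, and the 4 groups from F9 to GC-1 each overlapped the next. In testis it was at -5.27 ± 1.08.

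ASMM10P045497 was high in brain, kidney and heart alike. It read 1.62, 1.48 and 1.18 in brain, 1.71, 1.68 and 1.79 in kidney, 1.34, 1.07 and 1.76 in heart and 0.39, 1.40 and 0.60 in liver. The lines were at -0.07, 1.50 and 1.55 in F9 cells, -1.35, 0.04 and 0.25 in GC-1 and -1.32, 0.21 and 0.11 in GC-2, and testis at -5.05, -5.62 and -5.02. Kidney lay just above brain, brain overlapped heart, and all arrays of GC-1 and GC-2 lay below every array of these 4 tissues and above every testis array.

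ASMM10P050932 was low in both brain and heart. It was lowest in brain, at -2.93, -2.85 and -2.44, and in heart, at -2.11, -1.83 and -1.72, and higher in kidney, at -0.31, 0.33 and 0.51, and liver, at 0.34, 0.20 and 0.85. F9 was highest, at 1.32, 1.04 and 1.07, above all arrays of the other groups, with GC-2 at -0.76, 0.22 and 0.07 and GC-1 at -0.73, -0.42 and -0.48. Testis read -6.57, -6.46 and -4.67. Brain and heart did not overlap their neighbours in this order, whereas liver, kidney, GC-2 and GC-1 overlapped in turn.

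ASMM10P003512 was the most even of the 7. Its group means ran from 0.25 ± 0.27 in GC-2 and 0.23 ± 0.58 in liver through -0.28 ± 0.17 in kidney, -0.33 ± 0.03 in brain, -0.45 ± 0.19 in GC-1 and -0.84 ± 0.43 in heart to -1.05 ± 0.20 in F9 (SD, n = 3 each), a 2.46-fold range. Each group overlapped the next in this order. In testis it was at -4.40 ± 0.24.

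Whether the 7 probes differed among the groups in which they were all present was tested on the 21 arrays outside testis, with limma fitted over all 60804 probes and Benjamini-Hochberg adjustment. The rule used presence in these groups and not their order. All 7 differed among the 7 groups, with adjusted p from 3.07e-09 (ASMM10P050932) to 0.00152 (ASMM10P003512), against 91.9% of all probes and 95% of the widely present ones. A difference among these groups was thus the usual case on this array. The range between the highest and lowest group was 74.9-fold for ASMM10P007340, 26.9-fold for ASMM10P004151, 14.8-fold for ASMM10P050932 and 11.8-fold for ASMM10P004777. It was 5.25-fold for ASMM10P040827 and 4.23-fold for ASMM10P045497.

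The next comparison asked whether the lines, all 3 related to the male germ line, had other levels of these transcripts than brain, heart, kidney and liver. It cannot show whether the lines resemble testis, because the rule asked for a signal on every array of the lines and on none of testis. The mean of the 3 lines was set against the mean of the 4 tissues, and a probe was called at an adjusted p of at most 0.05 and a fold of at least 2. The SE and p of this fit measure the spread among arrays within a group, not that among the lines or among the tissues. ASMM10P050932 was higher in the lines, by 1.14 ± 0.15 on the log2 scale (SE, adjusted p = 2.91e-06), 1 of 7 where 14.6% of all probes and 27.7% of the widely present ones were called higher. ASMM10P007340 was lower, by -1.997 ± 0.473 (SE, adjusted p = 0.00135), and ASMM10P045497 was lower, by -1.23 ± 0.26 (SE, adjusted p = 0.000429), 2 of 7 where 16.1% of all probes and 12% of the widely present ones were called lower. Counts this small lie near those shares. For none of these probes did all lines lie on the same side of all tissues. For ASMM10P050932 F9 lay above every tissue mean, but GC-1 (-0.54) and GC-2 (-0.16) lay below kidney (0.17) and liver (0.46). For ASMM10P045497 GC-1 and GC-2 lay below every tissue mean, but F9 (0.99) lay above liver (0.79). For ASMM10P007340 F9 lay below every tissue mean, but GC-1 (0.94) lay above brain (0.89) and liver (0.005).

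The other 4 were not called. ASMM10P040827 differed by -0.44 ± 0.16 (SE, adjusted p = 0.0289), under 2-fold. ASMM10P004151 differed by -0.63 ± 0.39 (adjusted p = 0.178), ASMM10P003512 by -0.11 ± 0.15 (adjusted p = 0.541) and ASMM10P004777 by 0.08 ± 0.35 (adjusted p = 0.852). The median over all probes was -0.24, so the difference of ASMM10P003512 lay near that of a usual probe. By the rule that chose them, all 7 probes were well above background on every array of the lines.

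These differences changed in fits on single slides and with the slide as a block, and the cause of the changes was not tested. The arrays on the slide of heart and the lines alone gave a difference from heart of -6.34 ± 0.16 for ASMM10P007340, -3.05 ± 0.11 for ASMM10P004151, -1.76 ± 0.10 for ASMM10P004777 and -1.70 ± 0.18 for ASMM10P040827 (SE), all called lower, and of 2.02 ± 0.10 for ASMM10P050932, called higher. ASMM10P045497 differed by -0.80 ± 0.20 there (adjusted p = 0.0207), under 2-fold, and was not called. There the 3 lines are set against heart alone, the tissue in which 4 of these probes were highest. On the slide with replicate 1 of every group no probe was called. There ASMM10P007340 differed by -0.43 ± 1.40, whereas ASMM10P045497 differed by -2.18 ± 0.58 (adjusted p = 0.108) and ASMM10P050932 by 1.20 ± 0.93 (adjusted p = 0.634), as far from 0 as over all arrays or farther, with larger errors. The errors on that slide hold the spread between different lines and between different tissues. Those over all arrays hold only the spread within a group, so the errors of these fits are not alike. With the slide as a block ASMM10P007340 differed by -1.07 ± 0.52 (adjusted p = 0.0854) and was not called, while ASMM10P045497 (-1.75 ± 0.25, adjusted p = 2.40e-05) and ASMM10P050932 (1.19 ± 0.19, adjusted p = 6.72e-05) were. ASMM10P004151 then differed by 0.24 ± 0.34 and ASMM10P004777 by 0.95 ± 0.31 (adjusted p = 0.0158, under 2-fold).

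**Figure D4:**
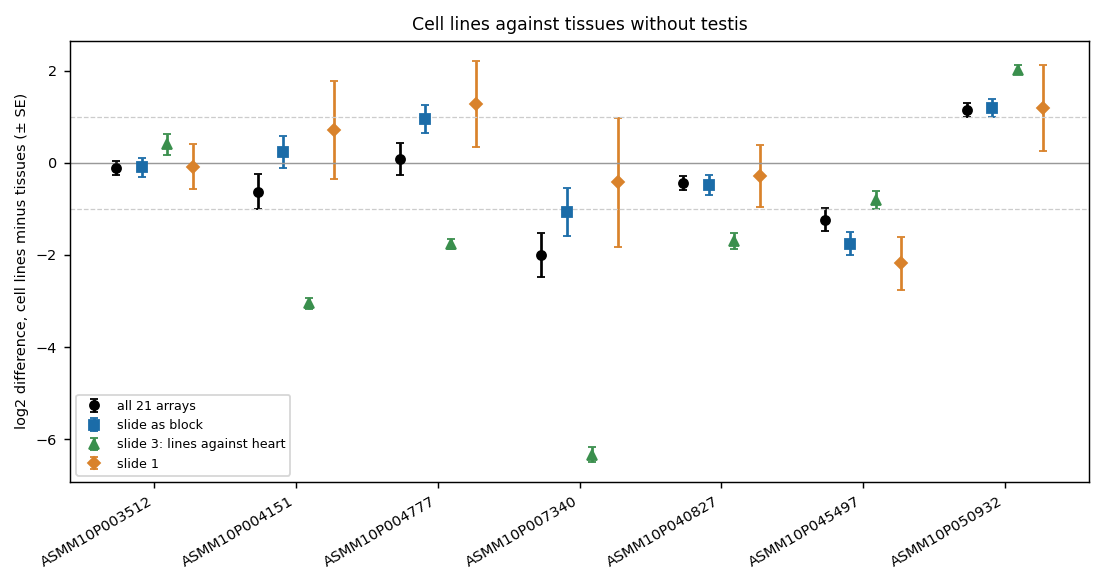
Difference in log2 level between the 3 cell lines and the tissues for each probe, with bars for 1 SE, from all 21 arrays (black), with the slide as a block (blue), on the slide of heart and the lines (green, lines against heart) and on the slide with replicate 1 of every group (orange); dashed lines mark a 2-fold difference. ASMM10P050932 lies above 0 and ASMM10P045497 below 0 in all 4, whereas ASMM10P004151 and ASMM10P004777 change side. The orange bars hold the spread between lines and between tissues, the other bars that within groups.

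The replicates of GC-1 and GC-2 did not agree for 3 of these probes. Replicate 1 of GC-1 exceeded the mean of replicates 2 and 3 by 2.17 for ASMM10P004151, 2.11 for ASMM10P004777 and 2.32 for ASMM10P007340, while replicates 2 and 3 lay within 0.38 of each other. In GC-2 the same difference was 3.67, 3.26 and 4.81, or 12.7-fold, 9.58-fold and 28.1-fold. So wide a difference was rare, since 16 of 13594 widely present probes (0.118%) were higher by 2 or more on the log2 scale in replicate 1 of GC-1, 152 (1.12%) in replicate 1 of GC-2 and 11 in both, of which these 3 were members. ASMM10P045497 ran the other way, lower in replicate 1 by -1.60 in F9 cells, -1.49 in GC-1 cells and -1.47 in GC-2 cells. In brain, heart, kidney and liver the difference of replicate 1 from the other replicates was at most 1.14 in size for any of the 7 probes. Replicate 1 of each line lay on another slide than replicates 2 and 3, so slide and preparation cannot be told apart, and the means of GC-1 and GC-2 for these 3 probes stand for arrays that disagree.

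To give the profiles names that can be read, the 1682 identified probes on all 24 arrays were ranked by likeness to each of the 7. Likeness was Pearson's r over the 21 arrays outside testis, and the most alike probe and the next were noted. This comparison was chosen after the values had been seen, r is a description, and it says nothing of shared function. For ASMM10P004151 the most alike was an exonic sense lncRNA of Uqcrq (r = 0.87), a gene for a subunit of respiratory complex III, followed by one of Cyc1 (r = 0.84), the gene for cytochrome c1 of the same complex. The Uqcrq lncRNA was also the most alike for ASMM10P040827 (r = 0.84). In heart it stood at 10.91 ± 0.31, in brain at 8.49 ± 0.25 and in testis at 7.94 ± 0.36 (SD, n = 3), so that it had the heart and brain order of both probes and kept a strong testis signal.

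For ASMM10P004777 the most alike was an exonic sense lncRNA of Setdb2 (r = 0.82), whose GC-2 arrays also disagreed (1.21 ± 3.90, SD, n = 3), and for ASMM10P007340 it was Gm5421 (r = 0.81). It was AK013078 (r = 0.79) for ASMM10P003512, Gm14088 (r = 0.85) for ASMM10P045497 and Gm14577 (r = 0.91) for ASMM10P050932. AK013078, an intergenic lncRNA, was at 3.92 or higher in all 7 groups outside testis and at 0.34 ± 0.17 (SD, n = 3) in testis. Second for ASMM10P045497 was 1500011K16Rik (r = 0.81), now named Mtln, which encodes a small mitochondrial protein. It ranged from -1.56 in GC-1 to 4.07 in brain and stood at -0.87 in testis. The second was AK016219 for ASMM10P003512 (r = 0.72), Gm15565 for ASMM10P004777 (r = 0.81) and Gm4349 for ASMM10P007340 (r = 0.80). It was Gm15393 for ASMM10P040827 (r = 0.83) and Gm15544 for ASMM10P050932 (r = 0.90). Of these, Gm4349 stood at 5.77 in testis.

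As no member had a readable sequence, the identified probes that came closest to the pattern are shown, taken as the 4 with the largest excess of the lowest other group over testis among those on all 24 arrays. They were picked on the same contrast and after the values had been seen, and they remained well above background in testis. The capitals mark the longest run shared by the probes of Gm14450 and Gm14630.
Gm12634: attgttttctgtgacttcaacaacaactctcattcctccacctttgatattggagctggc
Gm14450: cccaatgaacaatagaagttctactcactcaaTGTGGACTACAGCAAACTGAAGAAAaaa
Gm14630: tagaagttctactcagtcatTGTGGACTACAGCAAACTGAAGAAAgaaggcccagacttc
Pgk1: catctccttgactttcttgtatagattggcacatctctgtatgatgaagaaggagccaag

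Gm12634, an intergenic lncRNA (chromosome 4, 90368713 to 90369907, GRCm38.p6), was at 5.26 or higher in all other groups and at 0.49 ± 0.10 in testis, a gap of 4.76. Gm14450 (chromosome X, 5984772 to 5985131) had a gap of 4.59 and a testis level of 1.25 ± 0.05, and Gm14630 (chromosome X, 57631591 to 57631974) a gap of 4.49 and a testis level of 2.37 ± 0.18. Both are intergenic lncRNAs whose probes share a run of 25 bases, so their signals may not be independent. The exonic sense lncRNA of Pgk1 (chromosome X, 106187100 to 106203699 for the gene) ranged from 3.42 in liver to 5.91 in F9 and was at -1.05 ± 0.21 in testis, a gap of 4.47 (SD, n = 3 for each).

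Testis was the lowest group for 129 of 174 identified X chromosome probes on all 24 arrays (74.1%), where the share over all 1682 identified probes was 74.7%. Over all 13551 probes on all 24 arrays, identified or not, it was 60.8%, so the identified probes do not stand for all. Testis was lowest for 50 of 53 probes of ribosomal protein genes and their pseudogenes, 9 of 10 of the snoRNA host genes Gas5 and the Snhg family, 5 of 6 encoded by the mitochondrial genome, 3 of 4 imprinted lncRNAs, the 1 probe of ribosomal RNA and 0 of 1 MHC class I probe. Among the position classes the count was 674 of 892 intergenic, 264 of 389 exonic sense, 63 of 80 exonic antisense, 73 of 93 intronic sense, 150 of 186 intronic antisense and 32 of 42 bidirectional probes. None of the 7 members could be placed in any of these groups.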

How the data were processed

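Per the file headers, the authors scanned 24 Cy3 arrays, 3 for each of 8 groups, and quantified them with Agilent Feature Extraction 11.5.1.1. The deposited intensities are processed signals, background-subtracted and detrended within an array, not normalized between arrays. A matrix of 60804 intensities repeats them (largest relative difference 0.000228). The authors also deposited other flags per spot, of 0 or 1.

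Here the log2 processed signal minus the log2 of the array's 75th percentile was used. Groups and replicate numbers came from the sample titles. One limma model (lmFit, eBayes) with a coefficient per group was fitted to the 21 arrays outside testis over 60804 probes, with Benjamini-Hochberg adjustment. Alternatives were the percentile over probes well above background on all 24 arrays, quantile normalization, normexp (offset 50) on median signals, a filter, replicate and slide blocks, single slides, the methods' t-test and leaving out arrays. Arrays give no counting depth, and 3 per group limit the precision. On simulated data with 200 of 60804 probes shifted by 2 on the log2 scale between lines and tissues, 97.5% were recovered. The simulated arrays held only the spread within groups, with no slide effect and no spread between lines or between tissues. The recovery in the measured arrays, which hold these, was not tested. Names, classes and probe sequences came from the study's supplementary lists, and gene positions from RefSeq (GRCm38.p6), matched by gene ID. The rule names every member and any gene name readable for it. The members and lists were chosen with earlier results of these data known. The fits were run in R 4.3.3 with limma 3.58.1; tables and figures used pandas 2.3.3, numpy 2.4.6 and matplotlib 3.10.9 under Python 3.11.15.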

Additional observations from a re-analysis of the deposited data

How the results depend on the processing

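The count of 7 depends on the flag. With the weaker flag, a positive and significant signal, the rule found 1 probe, none of the 7, and with 1 common level of -2.85 on all arrays it found 610, of which 6 were among the 7. Leaving out 1 array gave 7 to 15, and the 15 came without testis replicate 1.

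The calls between lines and tissues depended on the processing as follows. The number called higher was 1 and became 0 with the percentile over probes well above background on all 24 arrays, with normexp, on the slide of replicate 1 and with the methods' t-test. In the last pair ASMM10P050932 differed by as much as before (1.20, adjusted p = 0.634, and 1.14, adjusted p = 0.129), with larger errors. The errors of that pair hold the spread between lines and between tissues, which those of the main fit leave out. The number called lower was 2 and became 1 with normexp, with the slide as a block and with the methods' t-test, 0 on the slide of replicate 1 and 4 on the slide of heart and the lines. Leaving out 1 array gave 1 higher each time and 2 to 3 lower, the 3 without GC-2 replicate 1, where ASMM10P004151 differed by -1.03. All 7 probes differed among the groups under each alternative fitted, and without each array; single slides gave no such test. Arrays numbered 1, which shared a slide, deviated together more often (median correlation 0.167 over 21 pairs) than arrays of different number (-0.0312 over 126), but not every same-numbered pair passed 0.1 (-0.137 to 0.291 over 63), so the numbers were not taken as pairs. With the replicate number as a block the same counts of 1, 2 and 7 were found. Leaving out GC-2 and Liver replicates numbered 1 together, chosen after seeing the data, left 1 called higher and 3 lower, with ASMM10P004777 at -0.28.

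The direction turned for ASMM10P003512 on the slide of heart and the lines (0.40), for ASMM10P004151 with the slide as a block (0.24) and on the slide of replicate 1 (0.71), and for ASMM10P004777 (-0.28 to 0.27 over the arrays left out) with the other percentile (-0.39), on the slide of heart and the lines (-1.76), without GC-1 replicate 1 (-0.15) and without GC-2 replicate 1 (-0.28). The other percentile moved the median difference of all probes from -0.24 to -0.70, and with it ASMM10P004151 was called lower (-1.09) and ASMM10P050932 differed by 0.68. The cause of these shifts was not tested.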
